A study of Mus musculus with 51 samples.

Results

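H3K4me3 peaks at the starts of long intergenic noncoding RNAs (lincRNAs) in 24h mouse embryos are described here and set against the RNA of the same lincRNAs. A peak was taken when it lay within 2 kb of the start of a gene of biotype lincRNA and more than 5 kb from every start of a protein-coding gene. The rule took 760 of the 48658 H3K4me3 peaks, and these peaks serve 687 of the 3701 lincRNAs listed in the RNA tables. The rule uses position and biotype, and no peak height or RNA level, but a lincRNA had to be listed in at least 1 of the RNA tables. LoNA is a long noncoding RNA of the nucleolus, and the study compared its loss with controls. All samples were labelled C57BL/6. RNA was sequenced from control and LoNA KO (knockout) embryos (18h, 20h, 22h and 24h), and from Control and LoNA KD (knockdown) 2C-like mESC, stem cells whose label likens them to the 2C (two-cell) stage. Chromatin came from control and LoNA KO embryos at 24h, with antibodies to H3K4me3, H3K27me3 and acetylated nucleophosmin (AcNPM1), and for AcNPM1 also from LoNA KO embryos given a p300 inhibitor. The labels do not say how the KO or the KD was made or how many embryos make up a sample.

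Trimethylation of lysine 4 of histone H3 marks the starts of active and poised genes and is laid down by SET1 and MLL complexes, while trimethylation of lysine 27, laid down by PRC2, marks repressed genes. In the early mouse embryo H3K4me3 is known to form broad domains inherited from the oocyte and to be rebuilt at gene starts as the embryonic genome is activated. lincRNAs are transcribed from their own starts, often in few cell types and at low levels, and some of them act in the nucleus, host small RNAs or sit in imprinted regions.

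RefSeq promoter windows (build GRCm38.p6, from 250 bases before to 50 bases after a start) were matched by symbol for 268 of the 687 lincRNAs, or 39.0%. Base composition over the whole set is therefore void, because fewer than 80% of its members have a sequence. The windows below belong to lincRNAs that the results turn on: the one whose RNA was lost in KO embryos, 2 with abundant embryo RNA, 2 of the strongest marks, the one whose RNA rose between 18h and 22h, and the one with the largest fall of H3K4me3. Capitals mark a TATA box (TATAAA), the core of an SP1 site (GGGCGG) or a CCAAT box on either strand, each sequence is written 5′ to 3′ on the strand of its gene, and the strand stands after the position.
Gm17382, chr17:26886197-26886496 (-): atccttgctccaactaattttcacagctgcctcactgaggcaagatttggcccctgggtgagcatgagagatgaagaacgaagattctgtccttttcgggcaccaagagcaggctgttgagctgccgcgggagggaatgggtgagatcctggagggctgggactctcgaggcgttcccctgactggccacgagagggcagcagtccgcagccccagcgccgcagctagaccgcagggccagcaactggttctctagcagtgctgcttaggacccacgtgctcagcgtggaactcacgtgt
C86187, chr7:46975862-46976161 (-): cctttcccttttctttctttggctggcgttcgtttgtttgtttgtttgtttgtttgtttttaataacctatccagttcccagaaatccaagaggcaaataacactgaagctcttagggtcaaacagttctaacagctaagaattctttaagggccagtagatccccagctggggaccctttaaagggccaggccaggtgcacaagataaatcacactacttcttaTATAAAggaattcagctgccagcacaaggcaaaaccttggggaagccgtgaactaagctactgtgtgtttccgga
1300002E11Rik, chr16:21794097-21794396 (+): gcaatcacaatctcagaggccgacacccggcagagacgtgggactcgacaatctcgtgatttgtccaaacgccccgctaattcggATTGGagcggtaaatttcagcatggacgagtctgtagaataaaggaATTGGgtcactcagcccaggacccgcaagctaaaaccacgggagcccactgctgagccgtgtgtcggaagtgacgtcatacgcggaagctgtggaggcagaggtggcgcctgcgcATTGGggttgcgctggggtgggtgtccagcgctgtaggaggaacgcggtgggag
Gm5784, chr12:19387620-19387919 (+): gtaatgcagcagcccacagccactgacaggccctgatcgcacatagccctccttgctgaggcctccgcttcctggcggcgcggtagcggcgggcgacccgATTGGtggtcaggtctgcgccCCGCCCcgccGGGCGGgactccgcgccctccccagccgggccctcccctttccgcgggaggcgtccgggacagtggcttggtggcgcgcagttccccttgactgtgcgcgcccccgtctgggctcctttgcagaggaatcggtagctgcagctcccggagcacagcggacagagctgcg
Gm36445, chr13:65241265-65241564 (+): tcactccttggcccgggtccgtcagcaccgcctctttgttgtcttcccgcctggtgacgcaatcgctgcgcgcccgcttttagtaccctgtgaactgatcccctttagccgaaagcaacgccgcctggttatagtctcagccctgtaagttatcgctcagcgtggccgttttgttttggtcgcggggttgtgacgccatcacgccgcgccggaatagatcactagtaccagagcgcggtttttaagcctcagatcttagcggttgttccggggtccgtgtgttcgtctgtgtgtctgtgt
Gm1070, chr6:71293515-71293814 (+): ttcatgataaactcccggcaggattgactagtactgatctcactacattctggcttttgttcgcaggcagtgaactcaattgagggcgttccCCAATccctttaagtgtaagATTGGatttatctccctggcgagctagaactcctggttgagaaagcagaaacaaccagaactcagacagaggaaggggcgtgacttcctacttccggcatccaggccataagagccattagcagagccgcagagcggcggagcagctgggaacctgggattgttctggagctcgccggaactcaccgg
Gm26760, chr15:92344109-92344408 (+): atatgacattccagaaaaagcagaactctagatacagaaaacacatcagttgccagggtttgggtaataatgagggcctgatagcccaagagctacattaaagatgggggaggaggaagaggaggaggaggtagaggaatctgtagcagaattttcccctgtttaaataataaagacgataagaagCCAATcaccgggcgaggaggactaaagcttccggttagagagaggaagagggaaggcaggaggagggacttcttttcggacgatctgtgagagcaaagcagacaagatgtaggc

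These windows differ widely in CpG, the dinucleotide that clusters at many H3K4me3-marked starts. The window of Gm5784 has 30 CpG, a pair of GGGCGG boxes and 1 CCAAT box, and that of Gm36445 has 28 CpG and none of these 3 motifs. The window of 1300002E11Rik has 23 CpG and 3 CCAAT boxes. At the other end, the window of C86187 has 4 CpG and a single TATAAA, and it is the only one of those printed that lies outside the lincRNA's peak. Gm17382 has 14 CpG, Gm1070 has 12 and Gm26760 has 6.

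Of the matched windows, 169 lay in a member peak, and the shares below are theirs unless stated. RefSeq starts can differ from the starts used for the peaks, by 2415 bases at Gm12784. The SP1 core stood in 69 of them (40.8%), against 35.7% of all 32851 promoter windows, 46.2% of coding ones and 16.3% of those of lncRNAs. CCAAT stood in 67 (39.6%, against 37.4% of all) and TATAAA in 14 (8.28%, against 13.6% of all). A CpG ratio, observed over expected, of at least 0.6 was found in 55 windows (32.5%), against 35.8% of all and 14.0% of lncRNA windows. In the 99 matched windows outside a member peak, 14.1% reached that ratio, 8.08% held the SP1 core and 20.2% held TATAAA. Other motifs searched were CACGTG, the E-box, in 20 (11.8%, against 7.15% of all), and AAGATGG, the core of a YY1 site, in 10 (5.92%, against 6.34%). Both strands were searched, and these shares describe letters only. The lincRNAs of the 55 CpG-rich windows had a median H3K4me3 of 13.7 RPM (reads scaled by the library's total reads) in control embryos. Those of the other 114 windows in a member peak had 7.60 RPM. In control mESC 43.6% to 45.5% of the CpG-rich group had RNA at 1 CPM or more (counts scaled by library size), against 30.7% to 35.1% of the rest. Some members share sequence: 6 pairs, among them 2410018L13Rik with Gm5784 and BC002059 with Gm6712, hold an identical run of at least 24 bases, so their reads may not be fully separable.

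The member peaks were weaker and narrower than peaks at coding starts. Their median width was 799 bases, against 1148 bases at the 15664 peaks within reach of a coding start and 726 bases at the 29858 peaks away from both kinds of start. Control H3K4me3 ran from 0.751 to 233 RPM with a median of 5.11 RPM, between 12.4 RPM at coding starts and 3.74 RPM away from both. A lincRNA start lay inside the peak for 364 members (47.9%). Another 172 peaks lay upstream of the start and 224 downstream. The median distance to the nearest coding start was 41.6 kb, and the longest was 2071 kb. Most lincRNAs had 1 peak (586), while 93 had 2 and 8 had 3, and 36 peaks served 2 lincRNAs, so neighbouring members are not independent. Just inside the distance limit, a peak 1999 bases from its start had 3.74 RPM, and just outside, one at 2003 bases had 299.7 RPM. A RefSeq coding start lay within 5 kb of 39 members although none of the RNA tables lists one there.

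Members were spread over 470 windows of 1 Mb, of which 301 held a single member and 13 held 5 or more, 79 peaks in all. Chromosome 13 carried 72 of the members (9.47%), against 4.06% of all H3K4me3 peaks. The densest window, between 65 and 66 Mb of that chromosome, held 11 members at 7 lincRNAs, among them Gm36445 and the pluripotency-associated transcript Platr2, with control values from 1.32 to 37.5 RPM.

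The strongest mark of all lay over Gm26917 (chr17:39843013-39846341, plus strand), with 15546 reads or 233 RPM in control and 223 RPM in KO embryos over a peak of 3430 bases. This locus on mm10 overlaps a copy of the ribosomal RNA precursor, whose many other copies cannot be told apart by short reads, so its height is uncertain. H3K27me3 stood there at 259 RPM in control and 252 RPM in KO, so this locus was high for both marks. The next strongest were Rncr4 (43.9 RPM), a retinal noncoding RNA, Gm26887 (38.2 RPM), Gm5784 (38.2 RPM) and Gm36445 (37.5 RPM), followed by AC152827.1 (34.7 RPM), Gm13067 (32.3 RPM) and AC140477.4 (32.2 RPM). Several of these loci had little or no embryo RNA. Rncr4 had at most 0.832 CPM in any control embryo library at 18h, 20h or 22h. Gm26887, Gm13067 and AC140477.4 were not listed in any of those embryo tables.

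H3K4me3 RPM at the members was slightly lower in KO than in control embryos, as it was over peaks in general. RPM is scaled to total reads, of which 42.2% lay in H3K4me3 peaks in the control library and 39.3% in the KO library. The part of this library difference in the ratios was not tested. The authors' log2 ratio of KO over control had a median of -0.17, with the middle of the distribution from -0.30 to -0.02 and the whole from -1.07 to 0.60. Over all peaks the median was -0.13, and at coding starts it was -0.12. A value below 0 was found at 597 members (78.6%), against 73.2% of all peaks. There is 1 H3K4me3 library per condition, so no test of these differences is possible and the replicate spread is unknown. The columns carry the initials ZC and ZS, taken here to stand for control and KO because the table gives ZS over ZC and its title sets the KO against control.

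A change past 1.5-fold was rare. It was found upward at 1 member (0.132%), the peak of 4930445N18Rik, where 0.555% of all peaks passed. It was found downward at 20 members (2.63%), near the 2.81% of all peaks. The largest fall was at Gm26760, from 217 reads or 3.26 RPM to 77 reads or 1.55 RPM, a log2 of -1.07 with a 95% counting interval from -1.47 to -0.69. Gm20755 (-0.83) and Gm28730 (-0.82) followed. The largest rises were 4930445N18Rik (0.60), Gm45752 (0.57) and 1700007M16Rik (0.56), all of them weak peaks of 91 to 140 control reads. The counting intervals cover counting error only. RNA of Gm26760 did not follow a clear split: its control libraries gave 13.7, 7.25 and 20.3 CPM at 18h, and its KO libraries gave 8.52, 6.07 and 9.30 CPM. These groups overlap.

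**Figure D1:**
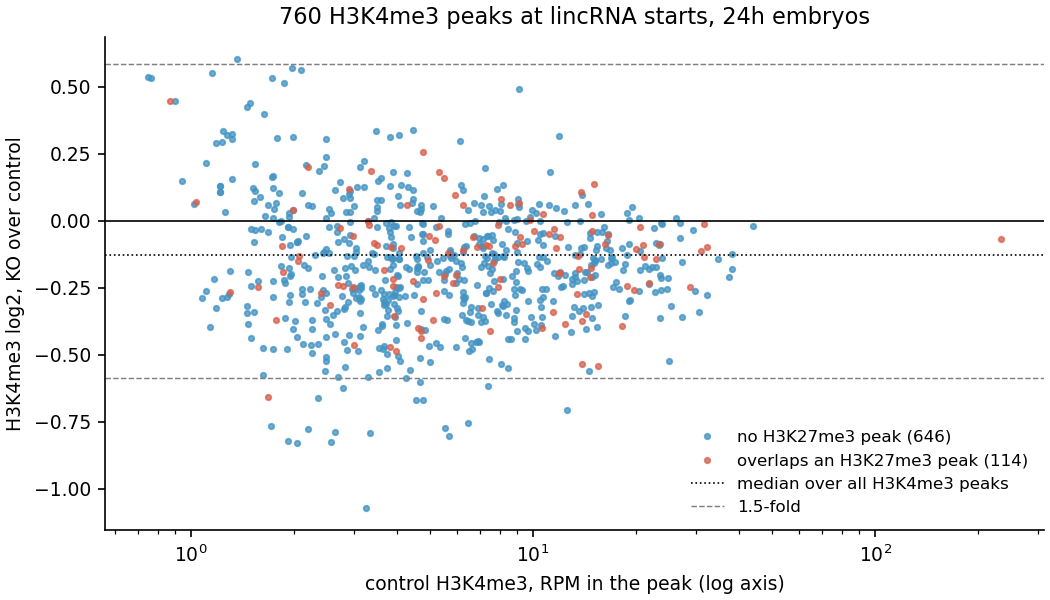
Each point is 1 of the 760 peaks, with control H3K4me3 (RPM, log axis) against the authors' log2 of KO over control. Colours separate the 114 peaks that overlap an H3K27me3 peak from the 646 that do not, and most points lie just below 0, with 1 above and 20 below the dashed 1.5-fold lines.

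H3K27me3 overlapped 114 member peaks (15.0%), against 21.6% of peaks at coding starts, 13.8% of peaks away from both and 16.6% of all. AcNPM1 overlapped 92 (12.1%, against 14.2% of all), and 78 peaks carried both. The narrowest peaks overlapped least often: from the narrowest to the widest of 4 classes by width, the H3K27me3 share of members was 7.35%, 12.1%, 21.7% and 20.6%. The member peaks with H3K27me3 had a median of 6.77 RPM H3K4me3 and those without had 4.77 RPM. AcNPM1 overlapped 78 of the 114 peaks with H3K27me3 (68.4%) and 14 of the other 646 (2.17%), and over all H3K4me3 peaks the shares were much alike, 72.3% and 2.62%. Among named lincRNAs, both marks stood at Miat, C130073E24Rik, AC140477.4 and Gm26917.

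In the regions at members, H3K27me3 was above its control value in KO embryos in 76 of 116 (65.5%, against 59.3% of all H3K27me3 regions), with a median log2 of 0.11 against 0.06 over all. AcNPM1 was above control in 73 of 97 regions (75.3%, against 68.4%), with a median of 0.15 against 0.14. With the p300 inhibitor, AcNPM1 was above the untreated KO value in 40 of 108 regions (37.0%, against 37.9%), with a median of -0.07 against -0.08. The member regions therefore moved about as far as all regions of the same table, and each ratio rests on 1 column per condition.

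The RNA libraries of 18h, 20h and 22h held 12077497 to 18286944 counts each, 3 per group, and those of mESC 16906302 to 17674190, 2 per group. At 24h the columns of a group formed near-identical pairs and were summed to 2 libraries per group of 13066794 to 16922914 counts, which detected 7877 to 10167 genes. All 9 oocyte and early embryo markers had counts in the embryo tables, and of 9 cumulus and granulosa markers 5 to 7 had counts at 18h, 20h and 22h and 2 at 24h, whose part in the results was not tested. The labels do not say that libraries come from separate animals or cultures, so a p-value measures only the spread between these samples, which may be technical. In bulk RNA, fewer cells of a type and less RNA per cell cannot be told apart.

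In embryos, a peak within 2 kb of the start did not separate lincRNAs with RNA from those without, whereas in mESC it did. Starts inside the strongest peak of a lincRNA are set apart below. At 18h, 23.3% to 26.2% of the 687 marked lincRNAs had 1 CPM or more across the control libraries, and 23.4% to 26.3% of the 2582 lincRNAs without a peak did. At 22h the shares were 20.5% to 20.8% and 20.8% to 21.7%, and at 24h, the time of the chromatin, 8.01% to 11.9% and 9.33% to 12.7%. At 24h only 172 of the marked and 587 of the unmarked lincRNAs were listed, and the rest count as 0 CPM. The ranges of both sets overlap at 18h, 20h and 24h and nearly meet at 22h. In control mESC the share was 20.2% to 22.0% of marked lincRNAs and 3.37% to 3.45% of unmarked ones, with no overlap. Protein-coding genes separated in embryos as well: 69.0% to 70.0% of the 14517 with a peak and 32.4% to 34.1% of the 5510 without one had 1 CPM or more at 18h. CPM is not scaled by length, and the median gene span was 7.25 kb for marked and 8.24 kb for unmarked lincRNAs.

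**Figure D2:**
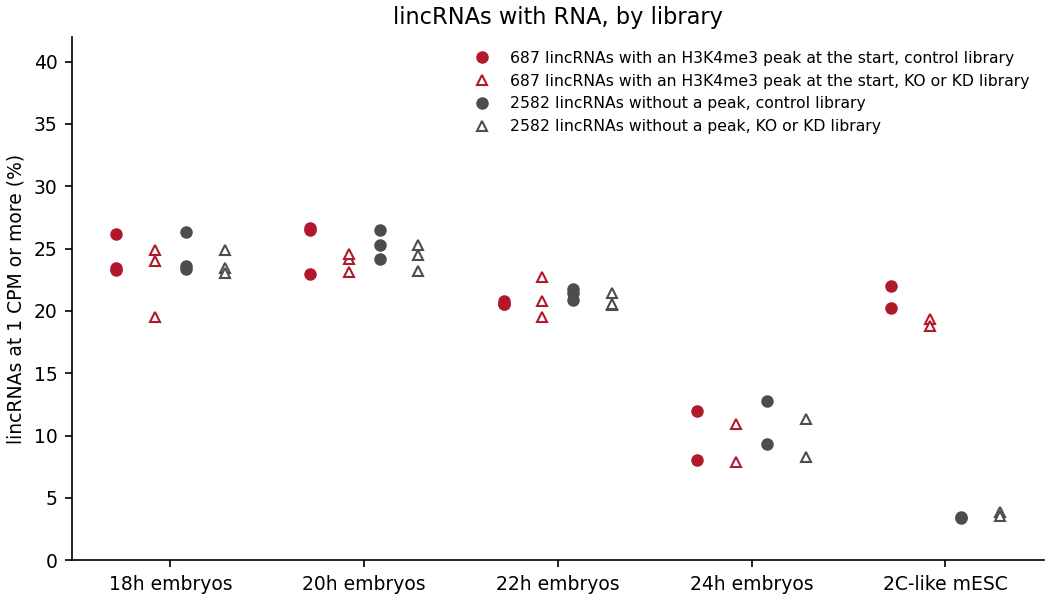
Each point is 1 library, with the percent of lincRNAs at 1 CPM or more on the vertical axis; red stands for the 687 marked and grey for the 2582 unmarked lincRNAs, filled circles for control and open triangles for KO or KD. Red and grey lie together in embryos and apart in mESC, where the control values are 20.2% to 22.0% and 3.37% to 3.45%.

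The height of the embryo mark went with RNA level in mESC, and with RNA level in embryos the rank correlation was near 0. H3K4me3 was measured in 24h embryos only, so the mESC values set embryo chromatin against RNA of other cells. Across the 687 lincRNAs, Spearman's rho between control RPM of the strongest peak and mean control CPM was 0.44 in mESC. In embryos it was 0.06 (18h), 0.05 (20h), 0.02 (22h) and 0.09 (24h). At 24h only 172 of the 687 were listed and the rest were set to 0 CPM, so that rho could hardly show a relation. Over the 14517 coding genes with a peak it ran from 0.08 to 0.14 in embryos and was 0.36 in mESC. These are correlations across genes that share libraries and partly share peaks, so they describe the tables and carry no test. With the lincRNAs cut into 4 equal groups by H3K4me3, from lowest to highest, 4.07%, 13.4%, 26.3% and 41.9% of lincRNAs had 1 CPM or more in control mESC, a steady climb. At 22h the shares were 19.2%, 19.2%, 18.7% and 20.9%, which is flat. At 18h they were 19.2%, 22.7%, 18.7% and 30.2%, and at 20h 24.4%, 23.3%, 24.0% and 33.1%, so at both times the group with the strongest marks stood above the other 3.

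**Figure D3:**
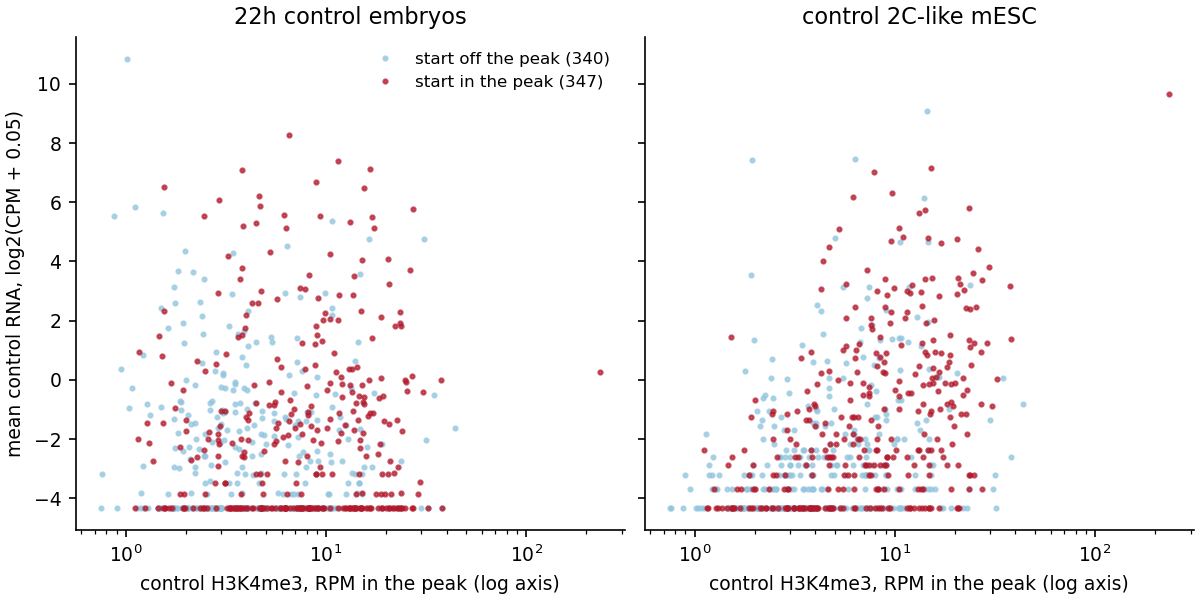
Each point is 1 of the 687 lincRNAs, with control H3K4me3 of its strongest peak (RPM, log axis) against mean control RNA (log2 CPM with a small constant added), at 22h on the left and in mESC on the right. Points rise with the mark in mESC (rho 0.44) and show no slope at 22h (rho 0.02), and red marks starts inside that strongest peak.

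lincRNAs whose start lay inside their strongest peak had a stronger mark and had RNA more often. The 347 lincRNAs with the start inside that peak had a median of 7.85 RPM, against 4.06 RPM for the 340 with the start beside it. Only the strongest peak of each lincRNA was used for this split. Since 364 member peaks held a start, some of the 340 had theirs inside a weaker peak. RNA at 1 CPM or more was found at 22h in 23.1% to 25.1% of the first group and 16.5% to 17.9% of the second, and in control mESC in 28.2% to 30.3% and 12.1% to 13.5%. For neither table do the ranges of the groups overlap. In control embryos, starts inside the strongest peak stood above lincRNAs without a peak at 18h (26.5% to 32.3% against 23.4% to 26.3%). The same held at 20h (27.4% to 32.0% against 24.1% to 26.5%) and 22h (23.1% to 25.1% against 20.8% to 21.7%). At 24h the ranges overlapped (9.80% to 15.0% against 9.33% to 12.7%). Starts beside the strongest peak stood below lincRNAs without a peak at 18h (19.4% to 20.0%), 20h (18.5% to 22.1%) and 22h. lincRNAs whose peak overlapped H3K27me3 (118) had RNA less often than the other 569: 10.2% to 11.0% against 22.5% to 23.0% at 22h, and 7.63% to 10.2% against 22.8% to 24.4% in mESC.

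Few lincRNAs had RNA throughout. Of the 687, 74 (10.8%) reached 1 CPM in all 9 control embryo libraries of 18h, 20h and 22h, 132 (19.2%) reached it in both control mESC libraries, and 26 did both. The mark was lowest at the 48 that had RNA in embryos only (3.96 RPM at the median) and highest at the 106 that had it in mESC only (10.7 RPM). The start lay inside the strongest peak for 88.5% of the 26 shared ones, and none of these strongest peaks overlapped H3K27me3. The remaining 507 (73.8%) reached it in neither set.

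The most abundant embryo RNA among the members came from C86187 (chr7:46967711-46975911, minus strand), whose peak held only 68 control reads or 1.02 RPM, well below the median of the members. Its RNA at 22h was 1716, 1804 and 1942 CPM in control and 2291, 1669 and 2197 CPM in KO libraries. The groups overlap, and in control mESC it was listed at 0. Gm11827, the next most abundant, had 323, 258 and 342 CPM in control and 264, 384 and 313 CPM in KO libraries at 22h, with a peak of 6.52 RPM. 1300002E11Rik had 138, 87.4 and 191 CPM in control and 91.2, 123 and 106 CPM in KO, over a peak of 16.6 RPM. For each of these genes the groups overlap. A830008E24Rik, BC002059, Gm4961 and Gm20052 completed the group, with peaks between 1.55 and 11.5 RPM. Strand of counting is not stated, so reads of overlapping or antisense genes cannot be told apart.

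By edgeR's test the RNA of 1 member differed between KO and control embryos, that of Gm17382 (chr17:26860287-26886175, minus strand). The list of stem cell and early embryo lincRNAs used here includes it. That list was drawn up with earlier results of these data known, so it is no independent annotation. At 18h Gm17382 had 181, 249 and 791 CPM in control libraries and 0.0613, 0 and 0.0912 CPM in KO libraries. At 20h the control libraries gave 45.7, 94.6 and 53.7 CPM and the KO libraries 0.0632, 0.198 and 0.0705 CPM. At 22h they gave 81.2, 30.1 and 64.8 CPM and 0.112, 0 and 0.119 CPM. Every KO library was thus far below every control library at all 3 times, with at most 3 counts in a KO library. By edgeR's quasi-likelihood test with Benjamini-Hochberg adjustment the adjusted p was 0.000733, 0.000314 and 0.000687 in the order of the times, with fitted log2 values of -12.77, -9.08 and -9.45 that depend on the prior count. H3K4me3 remained at its start, with 313 reads or 4.70 RPM in control and 185 reads or 3.73 RPM in KO embryos at 24h, a log2 of -0.33 with a counting interval from -0.60 to -0.07. Gm17382 is not listed in the 24h RNA table. No file pairs LoNA with a gene identifier, so which row is the targeted gene was not determined.

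No other member passed edgeR's test in embryos. The libraries of a group scattered widely, with a biological coefficient of variation of 70.7% at 18h, 77.5% at 20h, 55.5% at 22h and 158% at 24h, so a member that was not called is not shown to be unchanged. At 18h, 184 members were tested, of which 0 were higher and 1 was lower, where 0.00649% of all genes were called, and 5 had an unadjusted p under 0.05 where 5.14% of all genes did. At 20h 185 were tested, with 0 higher and 1 lower, where 0.0138% of all genes were called, 0.00689% in each direction, and 10 had an unadjusted p under 0.05 against 3.66% of all genes. At 22h 175 were tested, with 0 higher and 1 lower where 0.00656% of all genes were called, and 7 had an unadjusted p under 0.05 against 3.15%. DESeq2 called 4 of 265 members at 20h, where it called 0.13% of all genes, adding Gm26717, 4833412C05Rik and Gm14968, for which edgeR's adjusted p was 0.998. Groups did not overlap for 18 members at 18h (7 higher and 11 lower, 9.78% against 12.8% of all genes), for 24 at 20h (13.0% against 9.87%) and for 27 at 22h (15.4% against 9.23%). At 24h, edgeR called 0 of 70 members, as it did 0% of all genes. Of these members 5 had an unadjusted p under 0.05, against 5.16% of all genes. In simulated 24h data edgeR recovered 0 of 50 genes changed 16-fold, so its count of 0 could not show an absence of change. DESeq2 called 24 of 111 members at 24h (21.6%), where it called 13.5% of all genes. The KO effect differed between times for 0 of 272 members and 0% of all 18992 genes by edgeR's interaction test, with 19 members at an unadjusted p under 0.05 against 6.27% of all genes, and for Gm26717 and Gm31812 by DESeq2, which called 0.119% of all genes.

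**Figure D4:**
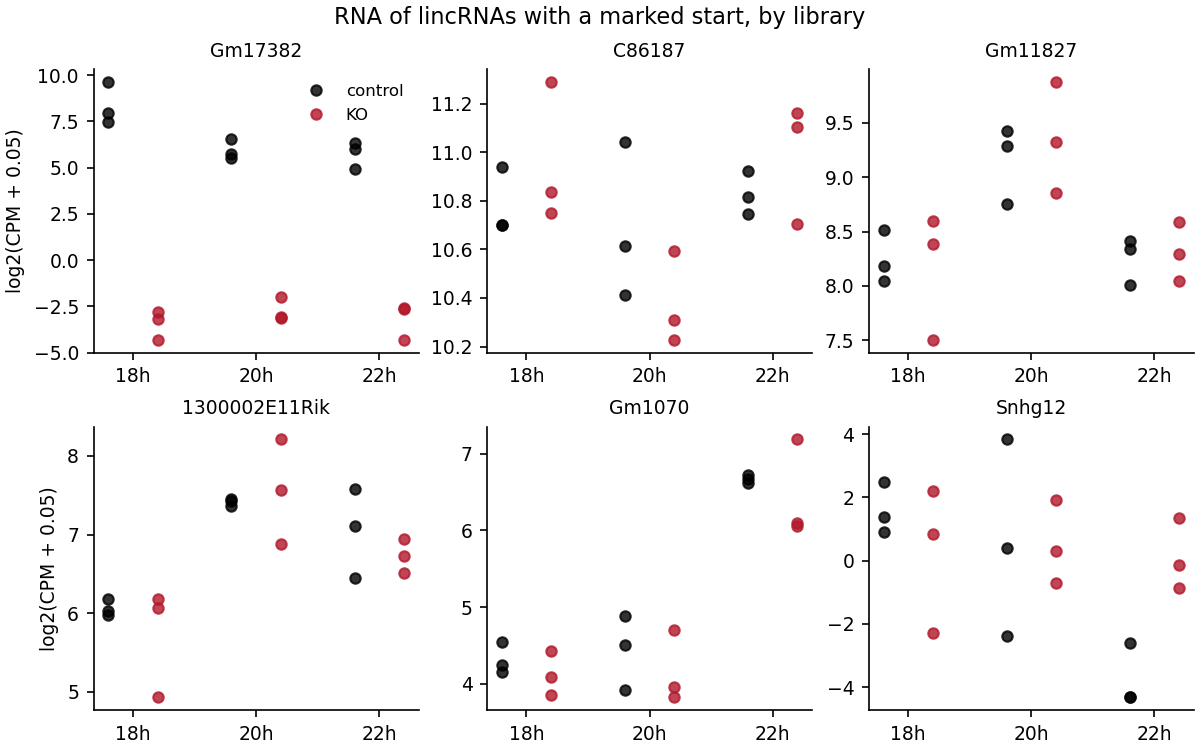
RNA of 6 lincRNAs by library at 18h, 20h and 22h, as log2 CPM with a small constant added; each panel has its own vertical range, black points are control and red points KO libraries. Only for Gm17382 do the groups lie apart at all 3 times, and Gm1070 is higher at 22h than at 18h in both.

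Between 18h and 22h in control embryos, 177 members were tested, and 1 rose and 5 fell, where 3.67% of all genes were called, 1.92% higher and 1.74% lower. DESeq2 called 20 of 269 (7.43%), where it called 9.48% of all genes. Gm1070 rose from 18.9, 23.3 and 17.6 CPM to 106, 102 and 98.2 CPM, a log2 of 2.26 with an adjusted p of 0.00548 by edgeR's quasi-likelihood test with Benjamini-Hochberg adjustment. Every 22h library was above every 18h one. 9530059O14Rik fell from 15.1, 23.9 and 19.4 CPM to 1.67, 4.81 and 1.33 CPM, and 2700038G22Rik from 4.34, 5.94 and 22.8 CPM to 0.0642, 0.832 and 0.406 CPM (log2 -4.73). Snhg12, a host of small nucleolar RNAs, fell from 1.82, 2.55 and 5.52 CPM to 0, 0 and 0.116 CPM. 2310040G24Rik and Gm17382 fell too. Gm1070 was called under all 9 alternatives, and each of the falls was lost under 3 to 6 of them. The times stand in separate tables whose batches are not given, so time and batch cannot be told apart.

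In mESC the members' RNA fell more often than it rose after LoNA KD. Of 200 members tested, 32 were higher and 95 lower (63.5% called), where 74.2% of all genes were called, 38.9% higher and 35.3% lower. The median log2 was -0.57 for members, 0.01 for all genes and -0.12 for the 155 tested lincRNAs without a peak, of which 54 were higher and 53 lower. Summed over the members, RNA was 3218 and 3300 CPM in the control libraries and 2031 and 2235 CPM in the KD libraries, whereas lincRNAs without a peak went from 499 and 522 CPM to 893 and 932 CPM. Without Gm26917, whose level is uncertain, the members' sums were 2392 and 2496 CPM against 1601 and 1663 CPM. Without Malat1 as well, a choice made after seeing the values, they were 1900 and 1917 CPM against 1384 and 1406 CPM. Of the 118 lincRNAs with H3K27me3 at a member peak 19 were tested, with 7 higher and 10 lower, and of the other 569 lincRNAs 181 were tested, with 25 higher and 85 lower. DESeq2 called 81 of 339 members (23.9%), 28 higher (8.26%) and 53 lower (15.6%), where it called 46.2% of all genes, 27.1% higher and 19.2% lower.

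Markers of cell state moved with the mESC comparison. All 6 pluripotent cell markers were lower in KD, where 35.3% of all genes were lower by edgeR's test. Their summed levels were 2349 to 2365 CPM in control and 1078 to 1109 CPM in KD. All 6 sympathetic and chromaffin markers were higher, where 38.9% of all genes were. Their sums went from 26.7 to 28.1 CPM up to 1600 to 1699 CPM. Both marker lists were chosen with earlier results of these data known, so these counts are no independent support. The part of the marker difference in the members' change was not tested. The libraries of a group correlated at 0.998 (log2 CPM), and the p-values rest on a spread that small.

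For Gm17382 the mESC table is at odds with itself. Its deposited counts are 402 and 382 in the control columns and 0 and 1 in the KD columns, which give a mean of 191 normalised counts, while the authors' deposited table states a mean of 0.257. A mean of 0.257 is what these counts give when both control values are set to 0. Recomputed from the counts, the deposited mean was matched within 0.02 on the log2 scale for all but 4 of the 28921 genes of that table, and for every gene at 18h, 20h and 22h. Which of the deposited values is right was not determined, so the mESC fall of Gm17382 (from 23.1 and 21.9 CPM to 0 and 0.0596 CPM) supports nothing here. Without it the count of lower members is 94.

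**Figure D5:**
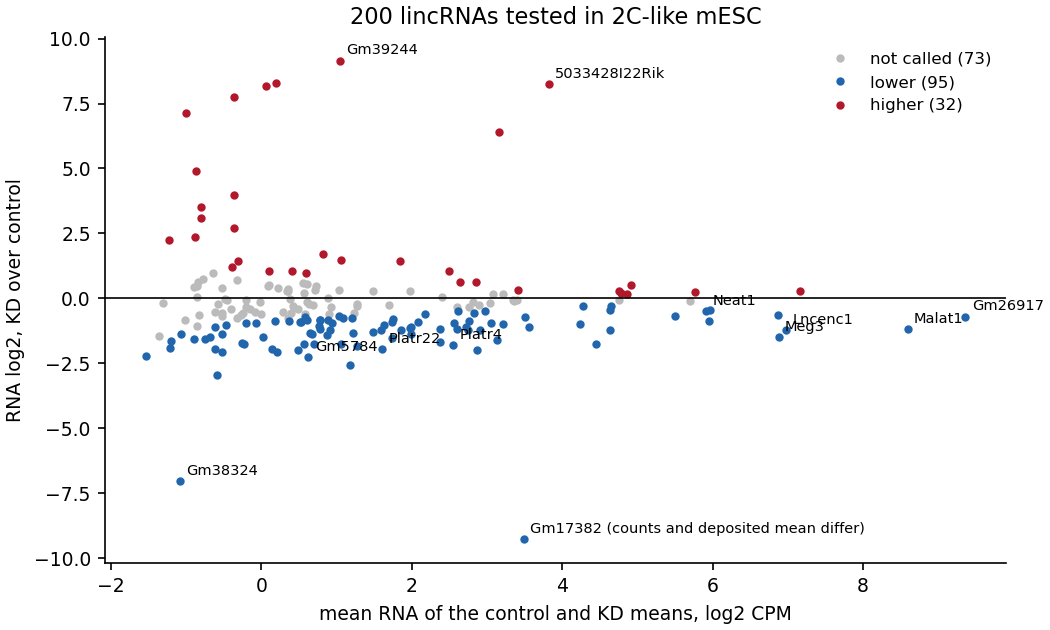
Each point is 1 of the 200 lincRNAs tested in mESC, with mean RNA (log2 CPM) against the fitted log2 of KD over control; blue is lower, red higher and grey not called by edgeR. More points are blue (95) than red (32), Gm26917, Malat1, Lncenc1 and Meg3 lie below 0, and the point of Gm17382 rests on counts that its deposited mean contradicts.

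Calls in mESC are by edgeR's quasi-likelihood test with Benjamini-Hochberg adjustment, which called 74.2% of all genes, 38.9% higher and 35.3% lower. Of the nuclear lincRNAs, Malat1 and Neat1 were abundant in mESC. Malat1, of nuclear speckles, went from 579 and 492 CPM to 258 and 218 CPM (log2 -1.17), and Neat1, the scaffold of paraspeckles, from 72.5 and 69.0 CPM to 50.8 and 49.2 CPM (log2 -0.50). Both KD libraries were below both controls for each. The peak of Malat1 lay 1376 bases off its start. Of the 7 members in this list, Miat (-0.81) was lower too, 2900097C17Rik (0.27) was higher, Pvt1 and Epb41l4aos were not called, and Dancr was not tested. In the list of stem cell and early embryo lincRNAs, 6 of the 8 members other than Gm17382 fell. Of all members tested 47.5% were lower, and of all genes 35.3%. Other Platr members, among them Platr2, Platr19 and Platr30, are not in the list and were not counted. The list was chosen with earlier results of these data known, so the count is no independent support. Lncenc1, a transcript of naive stem cells whose peak lay 1933 bases off the start, went from 176 and 177 CPM to 75.3 and 76.5 CPM (log2 -1.22). Platr22 (-1.96), Platr4 (-1.80), Platr7 (-1.38), Platr10 (-0.87) and Platr26 (-0.79) fell with it, and Platr20 and Platr27 were not called.

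Meg3, an imprinted lincRNA of the Dlk1 region, fell from 174 and 173 CPM to 61.6 and 62.1 CPM (log2 -1.49). Its peak lay 1655 bases off the start and held 1.94 RPM in control embryos. All 3 members that host small nucleolar RNAs rose, where 38.9% of all genes were higher and 35.3% lower: Snhg12 (0.50), Snhg20 (0.28) and Snhg6 (0.20). Snhg12 went from 25.8 and 24.2 CPM to 37.1 and 33.8 CPM, without overlap. Of the 4 miRNA hosts, Mir124a-1hg (-0.48) and Mir17hg (-0.31) fell, Mir9-3hg was not called and Mir155hg was not tested. Neither Ftx nor Jpx, of the X inactivation centre, passed, with adjusted p of 0.238 and 0.0837 by edgeR's quasi-likelihood test with Benjamini-Hochberg adjustment. The strongest peak of Ftx lay 1113 bases off its start, while another member peak overlapped its promoter window. The peak of Jpx held its start. In embryos none of the members of these lists other than Gm17382 was called between KO and control. Some small changes rested on the processing: the mESC call of Miat was lost under 5 of 8 alternatives, and those of Snhg6, Platr26 and Mir124a-1hg under 4. The gene list for the mark itself held 17 genes, of methyltransferase complexes that write it and demethylases that remove it (Kdm1a, Kdm1b, Kdm5a, Kdm5b and Kdm5c). At 18h, 20h and 22h 0 of the 17 were called, where at most 0.0138% of all genes were. In mESC 4 were higher and 9 lower, where 74.2% of all genes were called, 38.9% higher and 35.3% lower. Genes that write and genes that remove the mark were not counted apart.

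Among the largest mESC changes, 5033428I22Rik, whose peak lay 1738 bases off the start, rose from 0.115 and 0.0574 CPM to 27.7 and 28.7 CPM. Gm39244, C130073E24Rik, Gm31816 and AC153536.2 had no counts in either control library and reached 1.37 to 4.66 CPM in KD. Of these, C130073E24Rik carried both H3K27me3 and AcNPM1 in embryos, and the peak of Gm39244 lay 1361 bases off its start. On the other side, Gm38324 went from 1.03 and 0.861 CPM to 0 and 0. Gm5784, one of the strongest marks, went from 2.87 and 2.24 CPM to 0.408 and 0.655 CPM (log2 -2.25), AC155709.2 had a log2 of -2.94 and 4833413E03Rik one of -2.57. Gm26917 went from 805 and 826 CPM to 572 and 430 CPM (log2 -0.70), with the limit on ribosomal copies given above.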

How the data were processed

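RNA and chromatin tables of LoNA KO or KD and control samples were used. For RNA the authors deposited raw counts for each gene, a mean signal per gene (counts divided by size factors) and a fold change as a ratio, or as log2 at 24h. The authors' deposited peak tables hold read counts, total reads (another quantity, constant per column), RPM and a log2 ratio per region, on mm10. Per the submitters' processing notes the tools were Bowtie2 2.2.3, HISAT2 2.1.0 and HTSeq 0.6.0 for RNA, and bcl2fastq 2.2, Bowtie2 2.1.0 and MACS2 2.1.1 for chromatin, with no role stated. Except at 24h, the labels list more RNA samples than there are columns, so columns were assigned to groups only.

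Distances ran from the peak edge to the start in the Position column. Counts were fitted with edgeR 4.0.16 in R 4.3.3 (TMM, filterByExpr, quasi-likelihood test, Benjamini-Hochberg over all genes tested, threshold 0.05). DESeq2 1.42.0 was an alternative. CPM uses TMM-scaled library sizes. A gene absent from a table was set to 0 CPM in shares and medians. The edgeR fits were tested on simulated data. Of genes changed 16-fold they recovered 52% at 18h, 16% at 20h, 92% at 22h and 0% at 24h. Of genes changed 2-fold they recovered 0% at each embryo time and 96% in mESC. Named genes were the strongest marks, the most abundant in embryos, those past the threshold in embryos, the largest changes in mESC and in H3K4me3, and members of the gene lists. Members and lists were chosen with earlier results of these data known. Deposited means were recomputed with median-of-ratios size factors. Same-numbered columns did not deviate together: correlations ran from -0.18 to 0.13 in embryos and were 0.07 in mESC.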

Additional observations from a re-analysis of the deposited data

How the results depend on the processing

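H3K4me3 had 1 library per condition. In embryos the scatter between libraries limited the calls, most at 24h. DESeq2 called 4 members at 20h, 24 at 24h, 81 in mESC (53 of them lower), 20 between 18h and 22h and 2 for the KO effect by time, and the cause of the difference from edgeR was not tested. Fitting the 24h columns separately called 11 members. That fit takes near-identical columns as separate replicates, and its share over all genes was not taken, so no conclusion is drawn from it. The 18h to 22h count was 1 at a threshold of 0.01 and ran from 1 to 4 as each library was left out: 1 without control 18h replicate 3 or control 22h replicate 1. In mESC leaving out each library gave 88 to 111 called, 65 to 80 lower and 23 to 33 higher, and leaving out Gm17382, chosen after seeing the data, gave 126. With the replicate number as a block, 1 member was called at each of 18h, 20h and 22h, 124 in mESC and 0 for the KO effect by time, so the replicate block changed no call count beyond 1.5 times. Less the median over all peaks, the H3K4me3 log2 median was -0.039. When 0.5 or more of the peak had to overlap, the H3K27me3 share was 11.6% and the AcNPM1 share 8.82%. The median control CPM of members at 22h (0.0856, against 0.0707 without a peak) was 0.0792 with a limit of 1 kb, 0.0816 beyond 10 kb from coding starts, 0.264 with listed genes only, 0.171 at 18h, and 0 to 0.0642 as each library was left out. In all, 134 of the alternative values for the main results stayed close to the reported ones and 21 moved. A count was taken as close when within 1.5 times, so 88 called in mESC against 127 is close. Many of the counts are 1 against 1 or 0 against 0 in embryo comparisons, where few changes could be called.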
